A study of Mus musculus with 10 samples.

Results

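The genes described here carry the symbols of mitochondrial ribosomal proteins and were taken by symbol alone: every gene of the authors' normalized table whose symbol begins with Mrpl or Mrps followed by a number and at most 1 letter from a to c. They are 77 of the 21862 genes in that table, 48 with an Mrpl symbol and 29 with an Mrps symbol. The 77 include Mrps36, whose product is known as a component of the 2-oxoglutarate dehydrogenase complex and not of the ribosome. All 77 passed the filter on low counts and were among the 13452 genes tested, and the lowest count of any of them in any of the 8 distinct libraries was 30, for Mrpl23. Mrpl53 fits the pattern but is not in the normalized table. Its locus on chromosome 6 holds 4 counts over the 10 libraries, so it was not described.

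Mitochondrial ribosomes translate the few messages of the mitochondrial genome, which code for core subunits of the respiratory chain and the ATP synthase. All of their proteins are encoded in the nucleus, made in the cytosol and imported. They form a large subunit, which joins amino acids and holds the exit tunnel at the inner membrane, and a small subunit, which reads the message. Some have relatives in bacterial ribosomes and others are found only in mitochondria. In neurons these ribosomes supply the machinery for the oxidative metabolism on which firing and synaptic transmission depend.

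RNA was taken from primary neurons of the cerebral cortex of C57BL/6J mouse embryos (E16.5 per the sample labels, E16 per the series text), cultured with AraC at 0.5 µM to kill dividing cells. Polyadenylated RNA was sequenced from 4 groups. The group called Control received a control lentivirus and no stimulus, and the group called BDNF received the control lentivirus and brain-derived neurotrophic factor, a ligand of the receptor TrkB. The group called H2BE received a lentivirus that expresses the histone variant H2BE from a constitutively active promoter, and the group called H2BE-BDNF received that virus and BDNF. RNA was collected 24 h after BDNF. The first 2 groups hold 3 libraries each and the H2BE-virus groups 2 each.

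The third library of Control exceeded the first at 0 of 48526 genes and held 73.7% of its total, and the third library of BDNF exceeded the first at 0 genes and held 61.9% of its total. These libraries are subsets of the first and not separate replicates, so each pair was counted as 1 sample. A CPM value given for Control 1 or BDNF 1 is the mean of the pair, every group has n = 2, and the tests used the larger library. The distinct libraries are numbered 1 and 2 in Control and BDNF, and 2 and 3 in the H2BE-virus groups. Comparisons between viruses therefore do not match replicate numbers. The labels do not say whether the libraries of a group came from separate cultures, so p-values measure the spread between these samples only. With the larger library alone standing for each pair, total counts ran from 5058074 in H2BE 3 to 14142545 in Control 1, and 0.229 to 0.262% of the counts of the 8 distinct libraries fell in the 77 genes. H2bc21, the gene of H2BE, had 5.32 and 5.22 CPM (read counts scaled to library size with edgeR's TMM factors) in Control, 3.88 and 4.09 in BDNF, 42.6 and 35.6 in H2BE, and 32.0 and 35.1 in H2BE-BDNF. The H2BE-virus libraries were all above the control-virus libraries. All 9 neuron markers were detected, with a summed level of 5363 to 5993 CPM.

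To show the sequence ahead of these genes, RefSeq's promoter table for GRCm38.p6 was matched by symbol, and 68 of the 77 genes had an entry. Mrpl4, Mrpl13, Mrpl15, Mrpl19, Mrpl38, Mrpl54, Mrps28, Mrps34 and Mrps35 had none. The 250 bases upstream of 4 starts are printed as examples of genes called below, and not all of these calls held with any library left out. Mrpl45 and Mrpl34 were lower with BDNF under the control virus, and Mrps12 was lower with BDNF and also with H2BE. Mrpl12 was higher with BDNF under the H2BE virus. Each window is written 5′ to 3′ on the strand of the gene. Capitals mark matches on either strand to GCGCA followed by any base and GCGC, the motif of nuclear respiratory factor 1 (NRF1), or CCGGAAG, the motif of ETS factors such as GABP. The windows are chr11:97315466-97315715 (plus strand) for Mrpl45, chr8:71464676-71464925 (plus) for Mrpl34, chr11:120484387-120484636 (plus) for Mrpl12 and chr7:28741822-28742071 (minus) for Mrps12. The last 24 bases of the Mrpl12 window lie inside the gene as GENCODE M21 annotates it.
Mrpl45: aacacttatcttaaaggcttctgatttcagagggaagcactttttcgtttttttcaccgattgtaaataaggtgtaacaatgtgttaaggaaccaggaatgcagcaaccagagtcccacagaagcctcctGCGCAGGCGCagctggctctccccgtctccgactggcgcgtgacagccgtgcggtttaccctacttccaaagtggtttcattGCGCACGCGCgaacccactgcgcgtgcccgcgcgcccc
Mrpl34: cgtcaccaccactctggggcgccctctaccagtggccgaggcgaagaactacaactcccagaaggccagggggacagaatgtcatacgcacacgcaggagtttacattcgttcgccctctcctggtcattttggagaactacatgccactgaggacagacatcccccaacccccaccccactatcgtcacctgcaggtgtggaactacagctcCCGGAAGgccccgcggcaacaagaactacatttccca
Mrpl12: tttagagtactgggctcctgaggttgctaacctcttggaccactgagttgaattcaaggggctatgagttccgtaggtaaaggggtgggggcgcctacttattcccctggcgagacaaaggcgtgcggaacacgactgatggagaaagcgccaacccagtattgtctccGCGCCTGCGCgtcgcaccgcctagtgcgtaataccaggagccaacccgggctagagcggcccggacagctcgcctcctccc
Mrps12: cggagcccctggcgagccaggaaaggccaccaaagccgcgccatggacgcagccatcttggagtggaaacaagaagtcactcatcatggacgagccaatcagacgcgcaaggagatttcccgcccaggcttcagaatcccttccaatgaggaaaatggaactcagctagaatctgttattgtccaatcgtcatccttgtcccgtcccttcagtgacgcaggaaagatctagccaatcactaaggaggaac
NRF1 and GABP are transcription factors known for binding promoters of nuclear genes with mitochondrial products. Mrpl45 held 2 matches to the NRF1 motif, Mrpl12 held 1 that begins at position -81 from the start, and Mrpl34 held 1 match to the ETS motif that begins at -37. The Mrps12 window held neither set of letters. The windows of Mrpl11 and Mrpl39, whose calls below held with any library left out, are not printed. That of Mrpl11 held neither motif and that of Mrpl39 the NRF1 motif. The printed genes were picked, and 25 of the 68 genes (36.8%) held either motif. Among the 68 genes, 10 (14.7%) held the NRF1 motif and 16 (23.5%) the ETS motif, and matches of the 2 motifs overlapped in 0 of them. Of the 10143 tested genes with an entry, 8.29% held the NRF1 motif and 13.8% the ETS motif, and of all 32851 entries 3.74% and 6.91% did. A match describes letters in the window and not binding. Of the 10 genes with an entry that fell with BDNF under the control virus, 3 held the NRF1 motif and 2 the ETS motif. Of the 5 that rose with BDNF under the H2BE virus, 2 held the NRF1 motif and 1 the ETS motif.

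The genes lie on 17 chromosomes and their messages are short. The principal protein-coding transcript had a median length of 1316 bases, against 3096 for all tested genes, and 11.6% of tested genes were shorter than the members' median. Mrpl52 had the shortest, at 418 bases, and Mrpl17 the longest, at 7300 bases. There were 24 genes under 1000 bases, 28 from 1000 to under 2000 and 25 of 2000 or more. Exons of 32 genes overlapped an exon of another gene, 9 of them over more than 20% of their exonic bases. Whether the counts used strand is not given in the sources used here, so reads of such genes can be shared with the neighbour. Among the genes called below this touches Mrps34 (77.8%), Mrpl24 (26.3%) and Mrps18c (23.2%), whose values are uncertain for that reason. The 5 named Mrp pseudogenes of the count table held 80 counts over the 8 libraries and none passed the filter.

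Per kilobase of transcript, the members' mean level over the 8 libraries ran from 4.27 CPM per kb for Mrps25 to 77.9 for Mrpl42, with a median of 20.2 against 9.07 for all tested genes. The 5 highest were Mrpl42 (77.9), Mrpl12 (63.3), Mrps18a (62.6), Mrpl30 (60.5) and Mrpl20 (58.2 CPM per kb). Mrpl12 forms the mobile stalk of the large subunit that recruits translation factors. By group, Mrpl12 had 67.3 ± 3.63 CPM per kb in Control, 59.3 ± 6.10 in BDNF, 57.6 ± 3.68 in H2BE and 68.9 ± 3.84 in H2BE-BDNF (SD, n = 2). Mrpl12, Mrps18a and Mrpl30 are neighbours in this order by less than those SDs. Mrpl42 has a longest annotated transcript of 3277 bases beside its principal one of 666, so its first place depends on the transcript used. So do the places of Mrps18a (longest 2220 bases, principal 884) and Mrpl30 (1757 and 969). The 5 lowest were Mrps25 (4.27), Mrps30 (5.53), Mrpl17 (5.58), Mrpl1 (5.99) and Mrpl32 (6.38 CPM per kb). Mrps30 and Mrps18a sit in the large subunit in spite of their names.

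On the CPM scale, which is not adjusted for length and serves to compare libraries, most genes varied little across the 8 libraries. The highest library exceeded the lowest by 1.15-fold for Mrpl42, by a median of 1.35-fold over the 77 genes and by 2.01-fold at most, for Mrpl24. Mrpl44 and Mrps22, which are mutated in inherited disorders of the respiratory chain, were among the steadiest, at 1.15-fold each. Mrps22 had 28.8 and 29.6 CPM in Control, 31.1 and 29.7 in BDNF, 27.0 and 29.1 in H2BE, and 30.3 and 28.9 in H2BE-BDNF. The summed level of the 77 genes was 2624 and 2516 CPM in Control, 2450 and 2443 in BDNF, 2281 and 2375 in H2BE, and 2549 and 2505 in H2BE-BDNF. Both H2BE libraries lay below the other 6, and those of Control and H2BE-BDNF overlapped. H2BE 2 was the lowest library for 22 genes (28.6%, against 15.3% of all tested genes) and H2BE 3 for 17 (22.1% against 13.0%). Control 1 was the highest for 22 genes (28.6% against 13.3%). In bulk RNA, fewer cells of a type and less RNA per cell cannot be told apart.

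**Figure D1:**
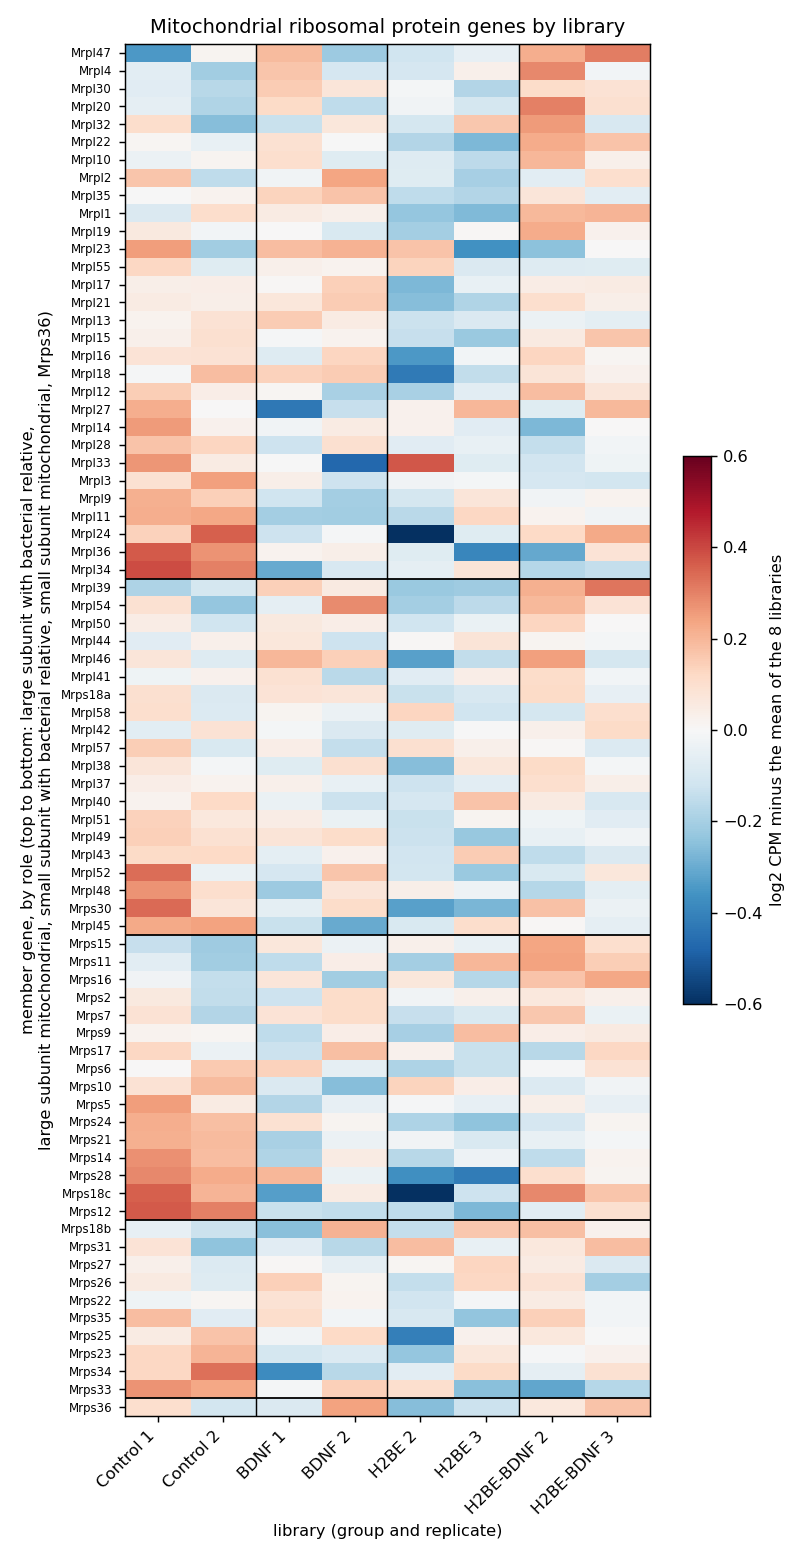
The 77 genes (rows, ordered by subunit and by listing with a bacterial relative or as mitochondrial) in the 8 distinct libraries (columns), coloured by log2 CPM minus the gene's mean over the libraries. Most rows are blue in the H2BE columns and red in the Control columns, and few cells pass 0.4 in either direction.

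With BDNF under the control virus, genes of the mitochondrial ribosome fell about as often as tested genes in general. Of the 77 genes 11 fell and 0 rose (edgeR quasi-likelihood test, Benjamini-Hochberg adjusted p under 0.05). That is 14.3% of the genes, where 31.4% of all tested genes were called and 14.6% were called lower. The median log2 fold change was -0.035, against -0.010 for all tested genes. Without adjustment 16 genes (20.8%) were lower and 3 (3.90%) higher at p under 0.05, against 19.95% and 21.1% of all tested genes. DESeq2 called 4 lower and 0 higher, a count with no DESeq2 share of all tested genes beside it. Groups did not overlap for 27 genes lower and 7 higher with BDNF, which is 35.1% and 9.09% of the genes against 31.8% and 32.4% of all tested genes.

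The 5 large-subunit genes that fell were Mrpl34, Mrpl45, Mrpl11, Mrpl27 and Mrpl9. Mrpl34, whose bacterial relative lies in the core of the large subunit, had 33.1 and 31.1 CPM in Control against 20.5 and 23.6 in BDNF. Its log2 fold change was -0.53 (SE 0.11, adjusted p = 0.00108, edgeR). Mrpl45 sits beside the exit tunnel and holds the ribosome to the inner membrane. It had 38.0 and 38.4 CPM in Control against 29.6 and 26.3 in BDNF, a log2 fold change of -0.44 (SE 0.10, adjusted p = 0.00346, edgeR). Mrpl11, at the base of the stalk, had 43.5 and 44.0 CPM in Control against 32.4 and 32.4 in BDNF. Its log2 fold change was -0.38 (SE 0.097, adjusted p = 0.00662, edgeR). In these 3 genes every BDNF library lay below both Control libraries, and the call held when any of the 8 libraries was left out. Mrpl27 is a neighbour of the peptidyl transferase centre, and its log2 fold change was -0.36 (adjusted p = 0.0277, edgeR). Mrpl9 changed by -0.30 (adjusted p = 0.0122, edgeR). The large subunit had 5 of 50 members lower, where 14.6% of all tested genes were, and a median log2 fold change of -0.032.

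The 6 small-subunit genes that fell were Mrps12, Mrps34, Mrps10, Mrps21, Mrps14 and Mrps5. Mrps12, which shapes the decoding centre, had 31.1 and 29.7 CPM in Control against 21.9 and 21.8 in BDNF. The 2 groups stood apart, with a log2 fold change of -0.47 (SE 0.10, adjusted p = 0.00272, edgeR). Mrps34, which is found only in mitochondria, had 13.1 and 15.1 CPM in Control and 9.26 and 10.7 in BDNF (log2 fold change -0.44, adjusted p = 0.0416, edgeR). The other 4, all with bacterial relatives, changed by -0.32 (Mrps10), -0.30 (Mrps21), -0.29 (Mrps14) and -0.25 (Mrps5) on the log2 scale. Adjusted p was 0.0328 to 0.0449 in edgeR. The small subunit had 6 of 26 members lower, where 14.6% of all tested genes were, and a median of -0.047. The subunits were not tested against each other. The 3 highest with an unadjusted p under 0.05, Mrpl30, Mrpl39 and Mrps15, had log2 fold changes of 0.20, 0.22 and 0.22 and adjusted p of 0.0679, 0.0840 and 0.117 in edgeR. Mrps15 was picked after its values were seen.

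Leaving out Control 1 ended 8 of the 11 calls, all but Mrpl34, Mrpl45 and Mrpl11, with adjusted p of 0.0549 (Mrps12) to 0.409 (Mrps5). Leaving out Control 2 ended those of Mrps14 (adjusted p = 0.0857), Mrps21 (0.103), Mrps10 (0.173) and Mrps34 (0.214). Without BDNF 1 those of Mrps5 (0.0802), Mrpl27 (0.0915), Mrps34 (0.146), Mrps21 (0.149) and Mrps14 (0.201) ended. Without BDNF 2 those of Mrpl9 (0.0911) and Mrps10 (0.142) did. Mrps14, Mrps34 and Mrps10 also passed 0.05 without some libraries of the H2BE virus, which only share the estimate of spread, with adjusted p from 0.0501 to 0.0596. Once transcript length and GC content were corrected for, 8 genes were lower and 3 higher, where 13.9% of all tested genes were called lower and 16.7% higher (30.6% in all), and the median turned to 0.030. The correction ended 5 of the 11 calls, those of Mrps14 (adjusted p = 0.108), Mrpl27 (0.112), Mrps10 (0.138), Mrps34 (0.218) and Mrps21 (0.234, with a log2 fold change of -0.17 in place of -0.30). It kept the other 6 and added Mrpl3 and Mrpl48 as lower and Mrpl30, Mrpl39 and Mrps15 as higher.

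Levels of markers of other cell types differed between Control and BDNF. In bulk RNA such a difference does not tell cell number from RNA per cell. The summed level of 8 progenitor markers was 116 to 119 CPM in Control and 230 to 244 in BDNF, and 5 of them rose and 1 fell. That of the oligodendrocyte lineage markers, 6 of 8 of them tested, was 40.4 to 43.3 CPM in Control and 73.7 to 80.0 in BDNF, with 1 rise and 0 falls. That of the astrocyte markers (7 of 8 tested) was 376 to 393 and 440 to 477 CPM, with 2 rises and 0 falls. That of the microglia markers (4 of 8 tested) was 10.6 to 11.1 and 24.0 to 24.9 CPM, with 1 rise and 0 falls. Of those 4 markers, 2 had higher and 2 lower fitted levels, with a median log2 fold change of -0.185. The summed level of the fibroblast and mural markers (5 of 6 tested) was 56.4 to 64.4 and 44.1 to 51.5 CPM, with 0 rises and 1 fall. The summed level of the 9 neuron markers was 5363 to 5454 and 5831 to 5993 CPM, and 3 of them rose and 4 fell. No marker on these lists was at 0 in every library. Their part in the change of the ribosomal genes was not tested.

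**Figure D2:**
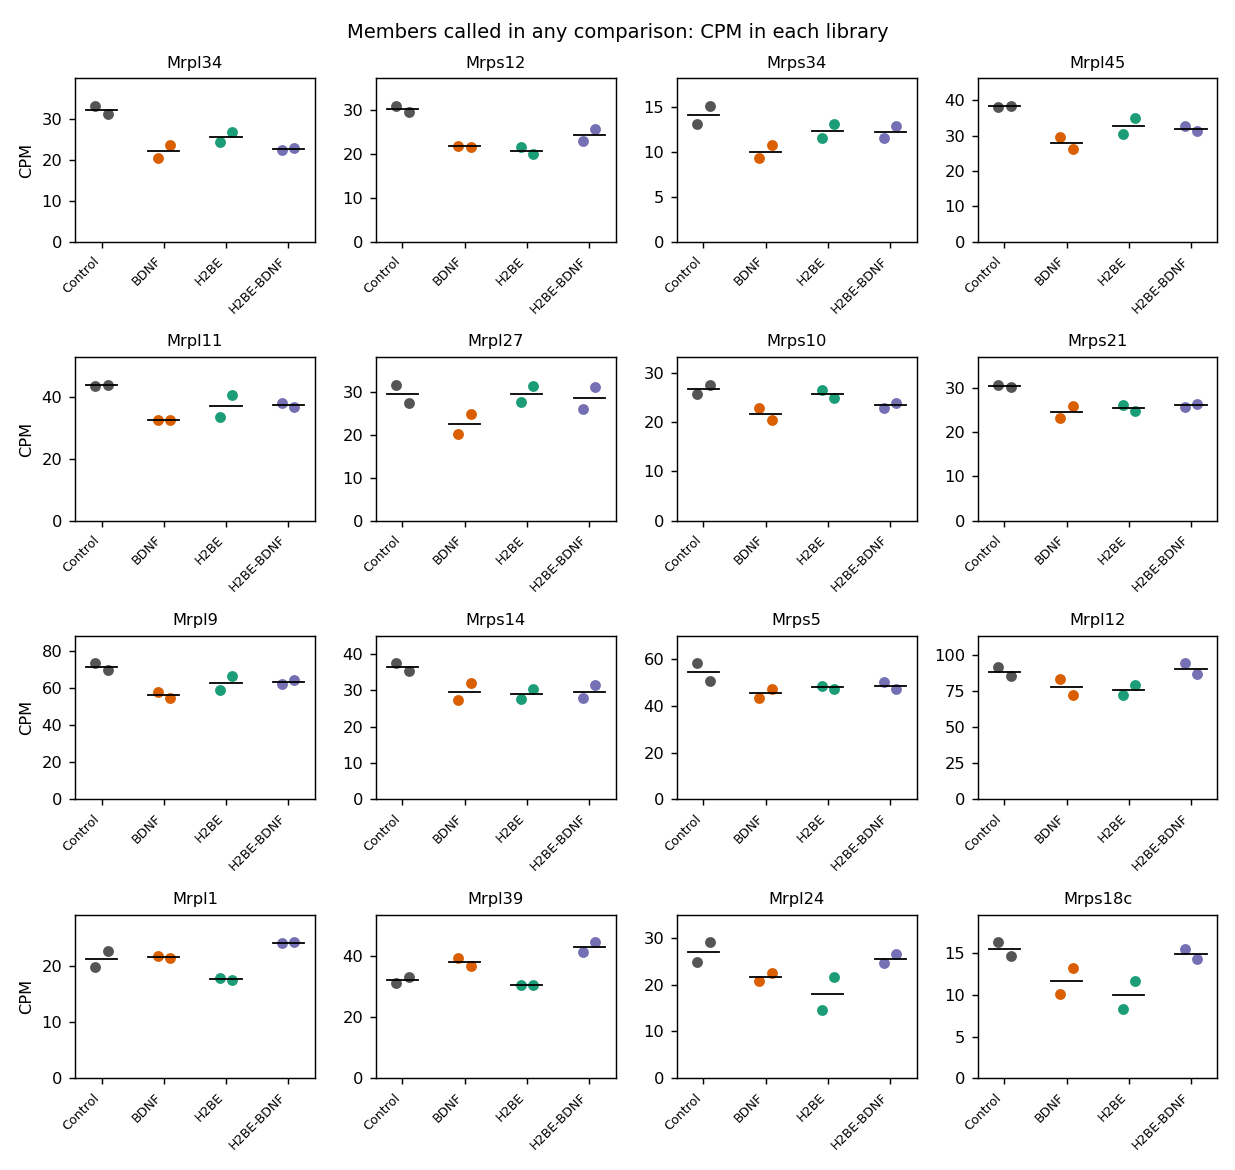
CPM (y axis, from 0, with its own range in each panel) of the 16 genes called in any comparison, by group on the x axis; points are the 2 samples of a group and bars their mean. The BDNF points of Mrpl34, Mrps12, Mrpl45 and Mrpl11 lie below both Control points, and the H2BE-BDNF points of Mrpl39 and Mrpl1 above both H2BE points.

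With the H2BE virus and no BDNF most of the 77 genes had slightly lower fitted levels, and 1 passed the test. Relative to Control 60 of them had a lower fitted level and 17 a higher one, with a median log2 fold change of -0.15 against 0.00 for all tested genes. Mrps12 fell and 0 genes rose, which is 1.30% of the genes where 2.13% of all tested genes were called, 0.803% lower and 1.33% higher. Without adjustment 20 genes (25.97%) were lower and 0 higher at p under 0.05, against 9.14% and 9.03% of all tested genes. DESeq2 called 0 and gave no adjusted p for 62 of the 77. Groups did not overlap for 43 genes lower with H2BE, which is 55.8% against 25.6% of all tested genes, and for 1 gene higher, which is 1.30% against 24.5%. That gene was Mrps15 (log2 fold change 0.17), picked after its values were seen.

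Mrps12 had 31.1 and 29.7 CPM in Control and 21.7 and 19.97 in H2BE. The H2BE libraries were below both Control libraries, by a log2 fold change of -0.54 (SE 0.12, adjusted p = 0.0271, edgeR). The call ended without Control 1 (adjusted p = 0.342), Control 2 (0.0644), H2BE 2 (0.246) or H2BE 3 (0.139), and with the length and GC correction (log2 fold change -0.42, adjusted p = 0.141, edgeR). Without BDNF 1, or without BDNF 2, 6 genes (7.79%) were called lower, where 2.82% and 2.78% of all tested genes were. Mrps18c had the lowest fitted change, -0.63 (adjusted p = 0.0851, edgeR), with 16.3 and 14.6 CPM in Control and 8.30 and 11.7 in H2BE. Mrps30 had 23.0 and 19.1 CPM in Control and 14.5 and 15.03 in H2BE, a log2 fold change of -0.52 that did not pass (adjusted p = 0.0773, edgeR). By role, the median was -0.17 for the 30 large-subunit genes listed with bacterial relatives and -0.11 for the 20 listed as mitochondrial. It was -0.15 for the 16 small-subunit genes listed with bacterial relatives and -0.095 for the 10 listed as mitochondrial. The split is rough: Mrps18a and Mrps18b are listed as mitochondrial, while their paralog Mrps18c is listed with a bacterial relative. Mrps36, which is no ribosomal subunit, had a log2 fold change of -0.26 (adjusted p = 0.398, edgeR).

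Between Control and H2BE the summed level of the neuron markers was 5363 to 5454 and 5724 to 5791 CPM, with 0 of 9 called. That of the astrocyte markers was 376 to 393 and 464 to 465 CPM, with 1 rise and 0 falls. That of the microglia markers was 10.6 to 11.1 and 5.34 to 8.02 CPM, with 0 called. That of the progenitor markers was 116 to 119 and 106 to 108 CPM, with 0 called. That of the oligodendrocyte lineage markers was 40.4 to 43.3 and 43.9 to 48.7 CPM, with 0 called. That of the fibroblast and mural markers was 56.4 to 64.4 and 57.7 to 73.3 CPM, with 0 called. Their part in the lower level of the ribosomal genes was not tested.

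Transcript length moved with the groups. For each library, the log2 CPM of all tested genes, minus the mean over libraries, was set against log2 transcript length. The slope was -0.066 and -0.033 per doubling of length in Control, 0.026 and 0.042 in BDNF, 0.021 and 0.018 in H2BE, and -0.0016 and -0.0076 in H2BE-BDNF. Short genes were thus relatively higher in Control than in the other groups. In H2BE against Control, members under 1000 bases had a median log2 fold change of -0.16, as did all tested genes of that length (-0.16). Members from 1000 to under 2000 bases had -0.11 against -0.10. The 25 members of 2000 bases or more had -0.16, where all tested genes of that length had 0.028. Across the 77 genes the log2 fold change of H2BE against Control did not follow length (Pearson r = 0.074), while across 13415 tested genes with a length r was 0.22. These are correlations across genes, which share their libraries and are not independent replicates. After the length and GC correction the members' median in this comparison was -0.058, with 50 of 77 lower, and 0 genes were called where 0.171% of all tested genes were.

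For BDNF against Control the medians by length were -0.091 for members under 1000 bases against -0.12 for all tested genes of that length, -0.028 against -0.090 from 1000 to under 2000, and -0.044 against 0.020 from 2000. Of the 11 genes that fell, 5 were under 1000 bases, 2 were from 1000 to under 2000 and 4 were 2000 or more. The members of those lengths numbered 24, 28 and 25. Among all tested genes of the same lengths, 141 of 873, 459 of 2580 and 1360 of 9962 were called lower. For H2BE-BDNF against H2BE the same medians were 0.14 against 0.072, 0.12 against 0.041 and 0.076 against -0.014. The corrected median in that comparison was 0.064, with 52 of 77 higher.

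**Figure D3:**
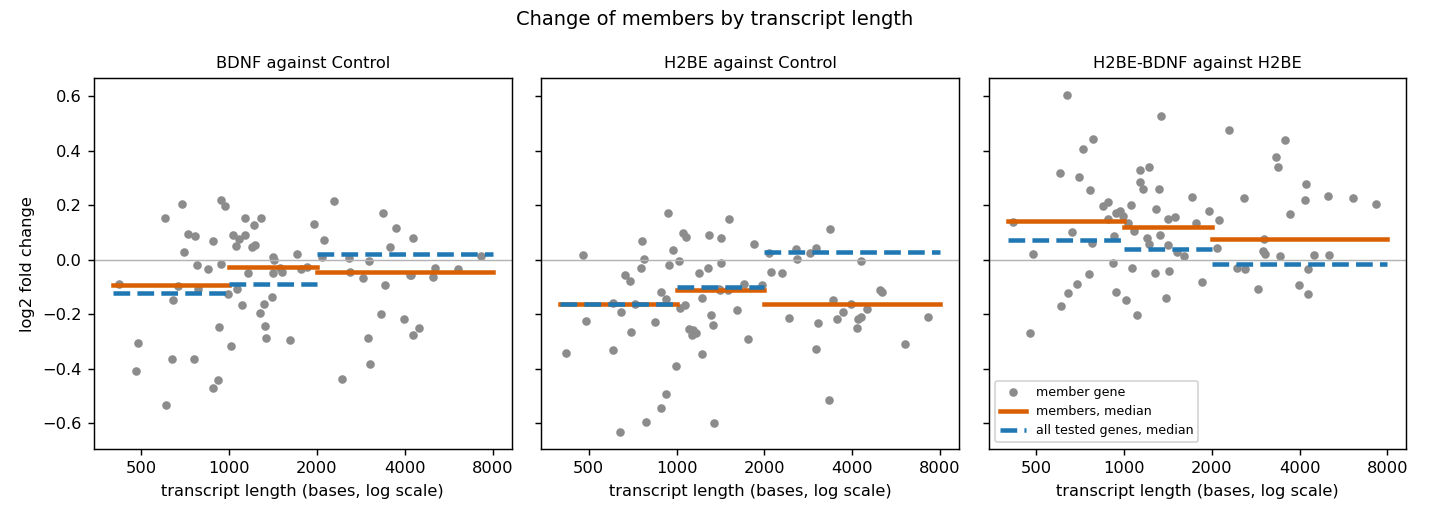
Log2 fold change of each of the 77 genes (points) against the length of its principal transcript (log axis) in 3 comparisons; solid bars are the members' medians and dashed bars those of all tested genes in the same length range. In H2BE against Control both bars are at -0.16 below 1000 bases, and they part from 2000 bases up, at -0.16 and 0.028.

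With BDNF under the H2BE virus, the members that passed the test were all higher. Relative to H2BE, 5 of the 77 genes rose and 0 fell, 57 had a higher fitted level and the median log2 fold change was 0.14 (all tested genes -7.14e-05). The 5 are 6.49% of the genes, where 25.8% of all tested genes were called and 13.4% were called higher. Without adjustment 15 (19.5%) were higher and 0 lower at p under 0.05, against 18.9% and 17.8% of all tested genes. DESeq2 called 1 higher and 0 lower, again with no DESeq2 share of all tested genes beside it. Groups did not overlap for 38 genes higher (49.4%, against 32.7% of all tested genes) and 5 lower (6.49% against 30.8%).

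Mrpl39, a large-subunit protein found only in mitochondria, had 30.5 and 30.6 CPM in H2BE and 41.2 and 44.5 in H2BE-BDNF. Its log2 fold change was 0.48 (SE 0.10, adjusted p = 0.00226, edgeR), and the call held with any library left out. With the length and GC correction it was 0.44 (adjusted p = 0.00370, edgeR). Mrpl1, which forms the stalk where spent tRNA leaves, had 18.0 and 17.6 CPM in H2BE and 24.2 and 24.3 in H2BE-BDNF. The samples of each group lay close together, and the log2 fold change was 0.44 (SE 0.13, adjusted p = 0.0198, edgeR). Mrpl12 had 72.4 and 79.3 CPM in H2BE and 94.3 and 87.1 in H2BE-BDNF. Its log2 fold change was 0.26 (SE 0.090, adjusted p = 0.0442, edgeR). Mrpl24 had 14.5 and 21.6 CPM in H2BE and 24.6 and 26.5 in H2BE-BDNF (log2 fold change 0.53, SE 0.16, adjusted p = 0.0223, edgeR). Mrps18c, the only small-subunit gene called, had 8.30 and 11.7 CPM in H2BE and 15.5 and 14.3 in H2BE-BDNF (0.60, SE 0.19, adjusted p = 0.0274, edgeR). In both of these genes H2BE 2 was the lowest of the 8 libraries, and their exons overlap another gene.

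Without H2BE 2 only Mrpl39 remained called, with adjusted p of 0.112 (Mrpl1), 0.333 (Mrpl12), 0.369 (Mrps18c) and 0.421 (Mrpl24) in edgeR. Without H2BE-BDNF 2 those were 0.0859, 0.261, 0.147 and 0.0509, and without H2BE-BDNF 3 they were 0.0789, 0.0565, 0.0563 and 0.102. Without H2BE 3 the calls of Mrpl1 (0.0934) and Mrpl12 (0.0635) ended, and that of Mrpl12 also without Control 1 (0.0583) or Control 2 (0.0594). Leaving out BDNF 1, or BDNF 2, gave 9 genes called higher (11.7%), where 15.5% and 15.6% of all tested genes were. With the length and GC correction 4 genes were called higher, where 14.1% of all tested genes were, and the call of Mrps18c ended (adjusted p = 0.0693, edgeR). Beside this comparison, the summed level of the progenitor markers was 106 to 108 CPM in H2BE and 238 to 241 in H2BE-BDNF, with 2 of 8 called higher. That of the microglia markers was 5.34 to 8.02 and 23.0 to 23.6 CPM, with 2 of 4 tested called higher. That of the oligodendrocyte lineage markers was 43.9 to 48.7 and 81.3 to 85.0 CPM, with 1 of 6 tested called higher. That of the astrocyte markers was 464 to 465 and 448 to 452 CPM, with 1 of 7 called lower, and that of the fibroblast and mural markers was 57.7 to 73.3 and 52.5 to 55.6 CPM, with 1 of 5 called higher and 1 lower. Of the 9 neuron markers 3 were called higher and 5 lower. Their part in the change was not tested.

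Between both BDNF-treated groups the genes were close. In H2BE-BDNF against BDNF 0 of 77 genes were called, where 0.0223% of all tested genes were (0.0149% higher and 0.00743% lower). The median log2 fold change was 0.034 (all tested genes -0.006), 4 genes (5.19%) were higher and 0 lower at an unadjusted p under 0.05, against 4.73% and 6.67% of all tested genes, and DESeq2 called 0. Groups did not overlap for 23 genes higher and 8 lower, 29.9% and 10.4% against 18.7% and 22.9% of all tested genes. Mrps12 had 21.9 and 21.8 CPM in BDNF and 23.0 and 25.8 in H2BE-BDNF, a log2 fold change of 0.14 (SE 0.11, adjusted p = 0.654, edgeR). Leaving out BDNF 1 gave 2 genes called higher (2.60%), where 1.68% of all tested genes were.

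The BDNF response was then compared between viruses as a difference of the log2 fold changes (the response under the H2BE virus minus that under the control virus). The members' median was 0.17, against -0.008 for all tested genes, and 67 of the 77 differences were above 0. None was called, where 1.15% of all tested genes were (0.327% above 0 and 0.825% below). At an unadjusted p under 0.05 there were 13 genes (16.9%) above 0 and 0 below, against 7.70% and 9.01% of all tested genes, and DESeq2 called 0, with no adjusted p for 72 of the 77. The median was 0.060 after the length and GC correction, with 46 of 77 above 0 and 0 called, where 0.0149% of all tested genes were. By length it was 0.23 for members under 1000 bases against 0.21 for all tested genes of that length, 0.14 against 0.12 from 1000 to under 2000, and 0.19 against -0.049 from 2000. The same difference is H2BE-BDNF against BDNF minus H2BE against Control, where the members' medians were 0.034 and -0.15. The H2BE libraries enter H2BE against Control, H2BE-BDNF against H2BE and this difference, so these are not separate results.

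Mrps12 came nearest to a call, with a difference of 0.69 (SE 0.16, adjusted p = 0.0522, edgeR), from responses of -0.47 under the control virus and 0.21 under the H2BE virus. Mrps18c had a difference of 0.97 (SE 0.25) and Mrpl24 one of 0.81 (SE 0.21), both with an adjusted p of 0.0727 in edgeR. Mrpl12 had one of 0.42 (SE 0.12, adjusted p = 0.113, edgeR). Mrpl45 responded by -0.44 and by -0.028, and that difference of 0.41 did not pass either (adjusted p = 0.188, edgeR). Leaving out BDNF 1 gave 4 genes called above 0 (5.19%, against 2.42% of all tested genes), leaving out BDNF 2 gave 2 (2.60% against 0.407%), and leaving out H2BE 3 gave 1 (1.30% against 0.0633%). Both responses were above 0 for 27 genes and below 0 for 17. A response below 0 under the control virus and above 0 under the H2BE virus was found in 30, and the opposite in 3. The responses share no library, and their Pearson r across the 77 genes was 0.36, against 0.71 across all tested genes.

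**Figure D4:**
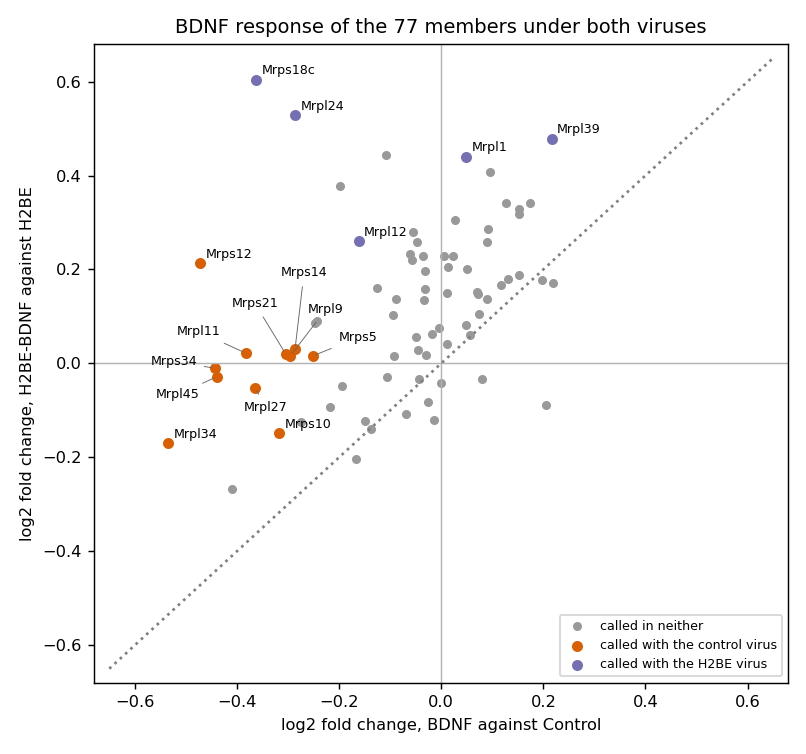
Log2 fold change with BDNF under the control virus (x axis) and under the H2BE virus (y axis) for the 77 genes; orange points passed the test on the x axis, purple ones on the y axis, and the dotted line marks equal responses. The 16 coloured points form separate sets, and 67 of the 77 points lie above the line.

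The other genes of mitochondrial translation were read from the same fit. The 5 subunits with other names include Dap3 and Ptcd3 of the small subunit. None of them was called in any of the 5 comparisons. All 5 had lower fitted levels in H2BE than in Control, with a median log2 fold change of -0.13. Of 26 assembly factors, 2 fell with BDNF under the control virus: Mtg1, a GTPase of large-subunit assembly (log2 fold change -0.54, adjusted p = 0.00398, edgeR), and Ngrn (-0.36, adjusted p = 0.00706, edgeR). Of all tested genes 14.6% fell in that comparison. Under the H2BE virus Mtg1 fell (-0.63, adjusted p = 0.00555, edgeR) and Mettl15, a methyltransferase of the small-subunit rRNA, rose (0.96, adjusted p = 0.0155, edgeR). There 12.3% of all tested genes fell and 13.4% rose. Mettl15 was also called in the difference of responses (1.58, adjusted p = 0.0452, edgeR), at a mean of 3.06 to 5.99 CPM. That call ended without either library of Control, H2BE or H2BE-BDNF (adjusted p of 0.0827 to 0.289, edgeR), and the rise itself without H2BE 2 (0.133), H2BE 3 (0.0579) or H2BE-BDNF 3 (0.102). The fall of Ngrn ended without Control 2 (0.0568), and both falls of Mtg1 held with any library left out.

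Of 15 tested translation factors 2 rose and 2 fell with BDNF under the control virus, where 16.8% and 14.6% of all tested genes did. The elongation factors Tufm (log2 fold change 0.29, adjusted p = 0.0104, edgeR) and Gfm1 (0.28, adjusted p = 0.0148, edgeR) rose. The initiation factor Mtif3 (-0.50, adjusted p = 0.00973, edgeR) and the release factor relative Mtrf1 (-0.59, adjusted p = 0.0242, edgeR) fell. Tufm rose under the H2BE virus too (0.41, adjusted p = 0.00273, edgeR), from a mean of 47.9 CPM in H2BE to 64.1 in H2BE-BDNF. Of 9 genes of mitochondrial DNA and its transcription, the RNA polymerase Polrmt fell with BDNF under the control virus (-0.25, adjusted p = 0.0492, edgeR). Of 12 nuclear regulators, Mycn fell (-0.73 and -0.43) with BDNF under the control and the H2BE virus, Pprc1 rose under the control virus (0.49) and Myc under the H2BE virus (0.44). Nrf1 and Gabpa, whose motifs were searched in the promoters, were called in 0 of the comparisons. In H2BE against Control none of these lists had a called gene, where 2.13% of all tested genes were called. The changes of Pprc1, of Mycn under the control virus and of Tufm under the H2BE virus held with any library left out. The call of Polrmt ended without any 1 of the 8 libraries (adjusted p of 0.0661 to 0.350, edgeR). With BDNF under the control virus, the calls of Mtif3 (0.0658) and Tufm (0.0964) ended without Control 2. Those of Gfm1 (0.191) and Mtrf1 (0.340) ended without Control 1, and without BDNF 2 (0.116 and 0.0572). Under the H2BE virus that of Mycn ended without H2BE 2 (0.121) or H2BE-BDNF 2 (0.106), and that of Myc without any 1 library of the Control, H2BE or H2BE-BDNF groups (0.0517 to 0.295).

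Proteins of the cytosolic ribosome are also short and highly expressed, and 78 of their genes were tested. With BDNF 12 of them rose and 4 fell under the control virus (median log2 fold change 0.065), and 64 rose and 0 fell under the H2BE virus (0.34). In H2BE against Control 15 fell and 0 rose (-0.21). The mitochondrial set had 0 rises and 11 falls, 5 rises and 0 falls, and 0 rises and 1 fall in these comparisons. Of all tested genes 16.8% rose and 14.6% fell, 13.4% rose and 12.3% fell, and 1.33% rose and 0.803% fell. In the difference of responses 6 cytosolic genes were called above 0 (median 0.27), against 0 of the mitochondrial set and 0.327% of all tested genes. Many cytosolic genes have near-identical processed copies, so their counts are uncertain, and the contrast between both sets was not tested.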

How the data were processed

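The authors deposited a table of raw counts for 48526 Ensembl genes in 10 libraries and a second table of normalized counts, a signal in which each library's counts are divided by 1 size factor, as a check of both deposited tables showed. Per the submitters' processing notes the genome build was mm10, and the tools named, with no version, are SAMtools, DESeq2 and deepTools. How reads were aligned and counted, with which strand setting and annotation, is not given in the sources used here. Gene symbols came from the normalized table, and every test ran on the raw counts.

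The third libraries of Control and BDNF, found to be subsets of the first, were left out of the tests, which used 8 libraries and a mean per group. The edgeR function filterByExpr (minimum count 10, minimum total 15) kept 13452 genes. Libraries were scaled by TMM and tested by edgeR's quasi-likelihood test (edgeR 4.0.16, limma 3.58.1, R 4.3.3), with Benjamini-Hochberg adjustment over all tested genes and a threshold of 0.05. DESeq2 1.42.0 was an alternative. The test and the length correction were tested on simulated data. Log2 CPM used a prior count of 2 in the length and GC correction and in the check of replicate numbers. For the slopes on length a constant was added to CPM instead, and for the heat map nothing was added. A floor of 3 counts equals 0.593 CPM in the library with the fewest counts and 0.21 CPM in that with the most. Coordinates, lengths and GC content come from GENCODE M21, with the principal coding transcript of each gene. The length and GC correction subtracted lowess curves (span 0.3) as offsets. The other alternatives were other scalings, no filter, all 10 libraries, the replicate number as a block, only the groups compared, and each library left out.

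The members, the other lists and the tests were chosen with earlier results of these data known. Named genes are the called members with the largest changes or smallest p, the 5 highest and 5 lowest per kilobase, the shortest and longest, members of known structural or disease role, and of the other lists the called genes with the smallest p.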

Additional observations from a re-analysis of the deposited data

How the results depend on the processing

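Across 22 alternatives no gene call changed its direction. Of the 17 calls among the 77 genes, DESeq2 kept 5, the fewest of any setting, and those of Mrpl34, Mrpl45, Mrpl11 (BDNF against Control) and Mrpl39 (H2BE-BDNF against H2BE) held in all 22. So did 5 of the 15 calls among the other lists. Where a call or count changed, the cause was not tested. The counts below are of the 77 genes alone. Except where a share of all tested genes is given above, they do not set these genes against others. Taking all 10 libraries as replicates counts the subset libraries as separate samples.
For BDNF against Control (11 lower, 0 higher) DESeq2 gave 4 lower, no filter on low counts 7, only the groups compared 6, and all 10 libraries as replicates 21 lower and 4 higher. For H2BE against Control (1 lower) DESeq2 gave 0, total counts 2, no filter 3, all 10 libraries 11, the third replicates in place of the first 2, and only the groups compared 8. For H2BE-BDNF against H2BE (5 higher) DESeq2 gave 1, all 10 libraries 8 and only the groups compared 9. For the difference of responses (0 called) no filter gave 3 above 0, all 10 libraries 7 and the third replicates in place of the first 3. For H2BE-BDNF against BDNF (0 called) these settings gave 0.
The length and GC correction gave 3 higher for BDNF against Control with a median log2 fold change of 0.030, and 0 called for H2BE against Control (median -0.058). The medians of H2BE-BDNF against H2BE and of the difference were 0.064 and 0.060. Length alone, chosen after seeing the data, gave 3 higher and 7 lower (median 0.046), 0 called (-0.030), 0.079 and 0.059. The longest transcript gave 3 higher (median 0.033), 0 called (-0.078), 0.081 and 0.059. Slopes on length moved by less than their SD within groups with the longest transcript or, chosen after seeing the data, all exons.
Same-numbered libraries did not deviate together: their deviations correlated at -0.17 in Control and BDNF and at -0.30 in H2BE and H2BE-BDNF. With 2 libraries a group each value rests on 1 contrast, so it cannot settle whether the numbers mark pairs. The replicate block gave 6 lower for BDNF against Control and 1 above 0 for the difference. With the third replicates in place of the first it gave 3 above 0. Together with the length and GC correction, the block gave 5 lower and 2 higher (median 0.021), 0 called for H2BE against Control (-0.088), 3 higher for H2BE-BDNF against H2BE (0.062) and a median difference of 0.064. Crossed numbers, chosen after seeing the data, gave 0 called for H2BE against Control and 10 higher for H2BE-BDNF against H2BE.
With each library left out in turn, BDNF against Control gave 3 to 11 lower, 0 to 1 higher and a median of -0.076 to -0.034. H2BE against Control gave 0 to 6 lower and a median of -0.16 to -0.10, and H2BE-BDNF against H2BE 1 to 9 higher and a median of 0.095 to 0.14. H2BE-BDNF against BDNF gave 0 to 2 higher. The difference gave 0 to 4 above 0 and a median of 0.13 to 0.20. A group left with 1 library is assumed to vary like the others.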
